A study of Mus musculus with 18 samples.

Results

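The circRNAs of the cytoplasm of NIH/3T3 cells, fibroblasts from the mouse embryo, were compared between cells without XPO4 (KO) and wild-type cells (WT). They were chosen as all circRNAs listed in any of 4 libraries, 2 of KO cytoplasm and 2 of WT cytoplasm, with a circRNA keyed by its chromosome, start and end and taken as 0 in a library that did not list it. This gave 9648 of the 16164 circRNAs listed over the 12 circRNA libraries of the study. The KO cells were made with CRISPR-Cas9, and both copies of the gene carried the same edit. Whether they came from a single clone, and whether the 2 replicates of a genotype were separate cultures, is not given in the sources used here. The p-values thus rest on the spread between these libraries, which may be technical. In edgeR that spread is pooled in part over circRNAs, so the p-value of a circle does not measure its own spread alone. RNA of all circRNA libraries was digested with RNase R, which removes linear RNA and spares most circles. The sample labels give 10 U for 1.5 h, whereas the study's methods give 3 U per μg of RNA. Beside the cytoplasm, use was made of 4 whole cell circRNA libraries and 6 mRNA-seq libraries, 2 and 3 of each genotype.

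A circRNA is a closed RNA made when the splicing machinery joins the end of a downstream exon to the start of the same or an upstream exon, in place of the next exon in line. Having no free ends, circles resist exonucleases and can outlive the mRNAs of their host genes. Circles made only of exons are found mainly in the cytoplasm, although they form in the nucleus. Exportins, the family XPO4 belongs to, carry cargo out of the nucleus together with the GTPase Ran, and the comparison asks what the cytoplasm holds when XPO4 is missing.

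A circle is known in these data by reads over its backsplice junction, the seam that linear RNA does not have. The junctions of the 3 circles with the most cytoplasmic reads are shown to make clear what was counted. They are given 5′ to 3′ in the sense of the host gene, from the GRCm38 genome, with the end of the last exon in lower case and the start of the first exon in capitals. In circNfix, from exon 2 of a nuclear factor I transcription factor gene, and in circPvt1, from exon 2 of a long noncoding RNA gene, a single exon is joined to itself. CircCacna1c joins exon 3 to exon 2 of the gene of an L-type calcium channel.
circNfix, chr8:84771784-84772315, minus strand: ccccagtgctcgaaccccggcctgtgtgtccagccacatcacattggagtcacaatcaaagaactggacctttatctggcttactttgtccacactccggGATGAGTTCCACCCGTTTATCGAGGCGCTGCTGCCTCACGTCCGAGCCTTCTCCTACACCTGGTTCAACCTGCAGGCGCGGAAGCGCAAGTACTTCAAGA
circPvt1, chr15:62107148-62107465, plus strand: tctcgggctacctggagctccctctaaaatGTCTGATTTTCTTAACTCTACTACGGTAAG
circCacna1c, chr6:119052601-119057515, minus strand: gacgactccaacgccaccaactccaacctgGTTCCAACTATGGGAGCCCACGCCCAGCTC

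Of the 9648 circRNAs, 9617 began and ended on annotated exon edges of a single gene, and in all 9617 the genome had AG just before the circle and GT just after it, the usual splice signals. A host gene was found for 9626 circRNAs, which came from 3751 genes. For 61 circRNAs more than 1 gene could be the host. The circles were small. Exons and lengths were counted over circRNAs with a matching transcript, which were 8780 of the 8917 whose reads summed to 10 or more and 265 of the 270 with at least 100 reads. Over the 8780, the median spliced length was 493 nt, with quartiles of 360 and 734 nt, and the median number of exons was 4. The 265 abundant circRNAs had a median spliced length of 428 nt. Among them 14.0% were single exons, against 4.09% of the 8780, and 52.5% began at exon 2 of their transcript, against 30.2%. Their neighbouring introns were also longer, with a median of 18158.5 nt before the circle, against 7205 nt. These features are given as a description and were not tested.

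Several facts of the libraries bear on what follows. Junction reads came to 77818 and 81941 in WT and to 50629 and 63335 in KO. The mRNA-seq libraries held 16974062 to 22057323 counted reads. Of 11 fibroblast marker genes, all 11 were above 1 CPM (counts scaled to a fixed library total), with a summed level between 21100 and 25100 CPM. The labels' extraction protocol speaks of blood, but the 9 blood and immune markers summed to between 2.71 and 6.08 CPM and 3 of them, among them the T cell gene Cd3e, had no read. The 5 epithelial markers summed to 4.83 to 5.40 CPM in WT and 0.558 to 1.40 in KO, and the 4 endothelial markers to at most 1.24. Xpo4 mRNA itself had 657, 614 and 685 counted reads in WT against 712, 504 and 687 in KO. The groups overlapped (log2 fold change 0.18 ± 0.11 (SE), adjusted p = 0.19 in edgeR's quasi-likelihood test, n = 3 per genotype). A small edit can leave mRNA in place, so this neither checks nor contradicts the label. No Xpo4 circle was listed in the cytoplasm. The mRNA-seq titles and the headings within the files disagree on the genotype. Titles were used here, and every mRNA direction below would turn if the headings were right.

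The cytoplasmic libraries of the KO held fewer junction reads than those of WT. The mean was 56982 ± 8984.5 (SD, n = 2) in KO and 79879.5 ± 2915.4 in WT, a ratio of 0.713, and the groups did not overlap. With 2 libraries against 2, the two-sided exact permutation test cannot go below p = 0.333, which is the value it gave. As reads were not counted against a spike-in, a lower total does not separate less circRNA per cell from fewer reads sequenced, and in bulk RNA fewer cells and less RNA per cell cannot be told apart. The number of circRNAs listed also did not overlap, at 8688 and 8725 in KO and 8870 and 8909 in WT (exact permutation p = 0.333, n = 2 per genotype). The order depended on depth: when each library was thinned to 50629 reads, the KO libraries had 8688 and 8322 circRNAs and the WT libraries 8227 and 8224, and KO lay above WT. The 100 most abundant circles of a library took 19.7% and 16.2% of the reads in WT and 11.1% and 19.7% in KO, and here the groups overlapped (exact permutation p = 0.667, n = 2 per genotype).

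The same circles led the cytoplasm of both genotypes, with 8 of the 10 highest means in common. CircNfix had 1837 and 1871 reads in WT against 682 and 685 in KO. All KO values lay below all WT values, but relative to the other circles edgeR did not call it (log2 fold change -0.89 ± 1.03, adjusted p = 0.47). The error was recovered from edgeR's test, which draws in part on the spread of other circles. CircPvt1 had 834 and 838 reads in WT against 436 and 1282 in KO. Its KO libraries fell on both sides of WT (log2 fold change 0.53 ± 1.01, adjusted p = 0.66). CircCacna1c had 528 reads in each WT library and 199 and 200 in KO, which did not overlap and did not pass the test either (log2 fold change -0.86 ± 0.90, adjusted p = 0.42).

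Among the 10 circRNAs with the highest mean in WT and the 10 highest in KO were also circles of Vapa, which tethers the endoplasmic reticulum to other membranes, Mettl9, a protein histidine methyltransferase, Dtnb, a dystrobrevin of the dystrophin complex, Rasa2, a Ras GTPase-activating protein, the histone-modifying enzymes Kat6b and Nsd2, and Alg12, a mannosyltransferase of N-glycan synthesis. CircVapa had 348 reads in each WT library against 75 and 245 in KO. CircMettl9 had 311 and 344 reads in WT against 48 and 253. CircCped1 had 529 and 410 reads in WT against 76 and 190. In these circles both KO values were below both WT values, while the KO replicates stood far from each other. CircNsd2, with 375 and 151 reads in WT against 76 and 305 in KO, and circAlg12, with 156 and 124 against 72 and 244, overlapped. Of the 12 circRNAs that made up both lists, circBnc2 alone was called, and it is described below.

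The gap between the KO replicates was widespread among abundant circles. Of 94 circRNAs with at least 80 reads over the 2 KO libraries, 72 had at least 2 times as many reads in replicate 2 as in replicate 1, and none the reverse. The median ratio of replicate 2 to replicate 1 was 3.30, against 1.25 for all reads. In WT, of 189 such circRNAs, 12 were at least 2 times higher in replicate 2 and 35 in replicate 1, with a median ratio of 0.942. At the same time some circles had almost equal counts in both replicates. Of the 42 circRNAs with at least 200 reads over the WT cytoplasmic libraries, 7 differed by at most 3 reads, among them circCacna1c, circVapa and circDtnb with 313 and 312. Of the 20 such circRNAs in KO, 3 differed by at most 3 reads, while 16 differed by over 5 times the SD that counting alone would give. The calls of several circles hung on which KO library was used. Without KO replicate 1, edgeR called circPvt1 (adjusted p = 0.0235) and circAlg12 (adjusted p = 0.0468) higher, and without KO replicate 2 it called circMettl9 (adjusted p = 0.0431) lower. CircPvt1 and circAlg12 had log2 fold changes above 0 with either KO library, whereas circMettl9 turned from a log2 fold change of -1.69 without KO replicate 2 to 0.60 without KO replicate 1. What set the KO replicates apart was not tested.

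**Figure D1:**
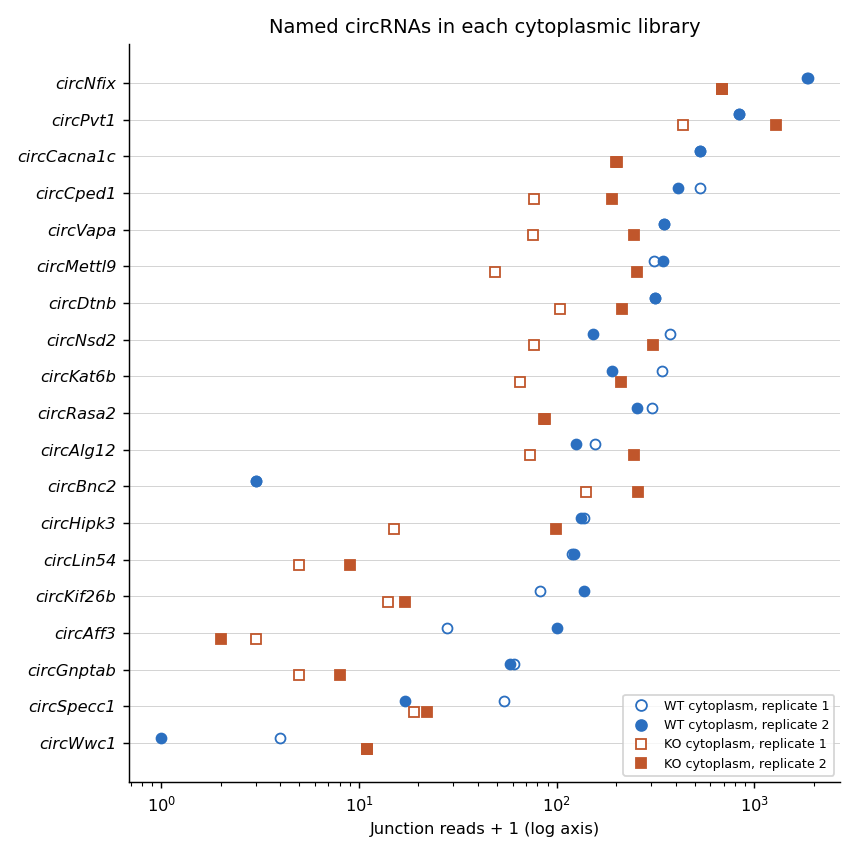
Junction reads plus 1 (log axis) of 19 named circRNAs, with 1 row per circRNA and 1 point per cytoplasmic library (circles WT, squares KO; open replicate 1, filled replicate 2). CircBnc2 stood at 2 reads in both WT libraries and at 139 and 256 in KO, and most abundant circles showed KO replicate 1 below KO replicate 2.

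By edgeR's quasi-likelihood test, 2671 of the 8917 circRNAs tested (30.0%) were higher in KO and 2097 (23.5%) lower, with a Benjamini-Hochberg adjusted p under 0.05. Of the calls, 56.0% were thus higher in KO, and the direction of the majority depended on abundance. Higher calls led only among the 4745 circRNAs with at least 10 and under 20 reads, with 1788 higher and 870 lower. From 20 to under 50 reads 820 were higher and 1121 lower, and from 50 to under 100 reads 61 were higher and 85 lower. Lower calls also led with the fit limited to at least 50 reads (34 higher, 53 lower) and without WT replicate 2 (1117 higher, 1388 lower). Without scaling for the library totals the calls were 837 higher and 1516 lower, or 35.6% higher, and the median log2 fold change over all circRNAs moved from -0.25 to -0.77, so directions below are relative to the other circles of a library. DESeq2 made 879 calls in place of 4768, of which 755 were higher and 124 lower. The calls were few among abundant circles. Of the 270 circRNAs with at least 100 reads, 8.52% were called, 2 higher and 21 lower, and of the 4745 with the fewest reads, 56.0%. With the fit limited to the 270, 3 were called, 1 higher and 2 lower.

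Most calls came from circRNAs that were almost absent in one genotype. Of the 9648 circRNAs, 3907 had at most 3 reads in each KO library and more in WT, 2934 had at most 3 in each WT library and more in KO, 239 had at most 3 in all libraries, and 2568 were over 3 in a library of each genotype. The first group held 1984 of the lower calls and the second 2390 of the higher calls, together 91.7% of the 4768. Since these groups are defined on the counts that were tested, their directions are fixed by that choice and are a description. Among the 2568, 281 were higher and 113 lower, or 15.3%.

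**Figure D2:**
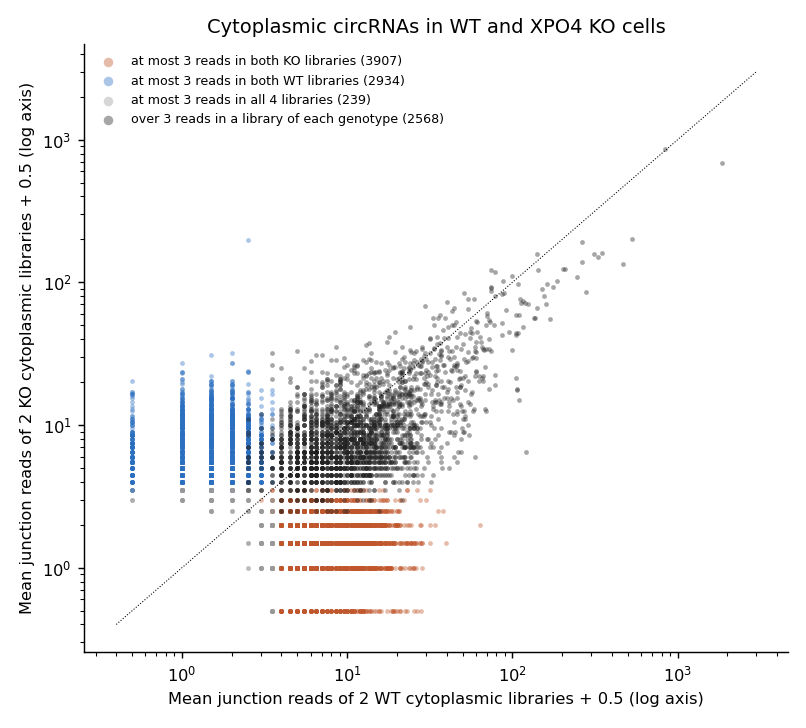
Mean junction reads plus 0.5 of each of 9648 cytoplasmic circRNAs in WT (x axis) and KO (y axis), both log axes, with 1 point per circRNA and the line of equal counts dotted. The 3907 circRNAs at most 3 in KO and the 2934 at most 3 in WT form bands along the axes, apart from the 2568 along the diagonal.

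The groups were chosen for having at most 3 reads in each library of a genotype, which itself keeps the low counts in a narrow range. Among the 3907 circRNAs low in KO, 42.6% had exactly 1 read in KO replicate 1, 23.7% had 0 and 7.52% had 3, with a mean of 1.18. KO replicate 2 had the same mean, and the WT libraries had a mean of 1.14 over the 2934 low in WT. Within that range the level in the low genotype hardly moved with the level in the other. Where WT had up to 10 reads over both libraries, KO had a mean of 1.15 per library, and where WT had over 30 and up to 50, it had 1.19. The 2 KO libraries were not alike in which of the 3907 had more reads (r = 0.0475 across circRNAs, a description). Low circles were mostly scarce ones, as 95.5% of circRNAs with 10 to under 20 reads were low in a genotype, against 0.741% of those with at least 100. Of all 9648 circRNAs, 4803 were listed in whole cells, against 38.2% of the 3907 low in KO and 36.1% of the 2934 low in WT. Abundance was not held equal in these shares. Among those that were listed, now counting in the 76 that were low in both genotypes, 1570 were low in KO cytoplasm, of which 1037 (66.1%) had over 3 reads in a KO whole cell library. For WT it was 760 of 1134 (67.0%). How such values came into the lists is not given in the sources used here, and their origin was not tested.

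**Figure D3:**
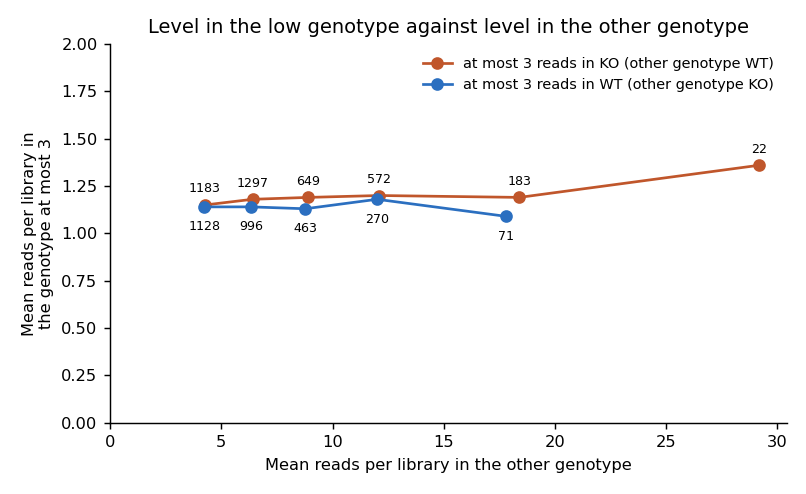
Mean reads per library in the genotype with at most 3 reads (y axis) against mean reads per library in the other genotype (x axis), for circRNAs grouped by the reads of the other genotype. The number at each point is the number of circRNAs (groups of at least 20). The level, which the choice of circRNAs holds to at most 3, stayed between 1.09 and 1.36 reads while the other genotype ran from about 4.24 to 29.2.

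The whole cell libraries, whose counts are separate from those of the cytoplasm, allowed a look at the same circles. Whether both fractions came from the same cultures is not given in the sources used here. The 1494 circRNAs low in KO cytoplasm alone and listed in whole cells had 6167 and 6298 whole cell reads in KO and 6621 and 6537 in WT, a ratio of 0.947. The 1058 low in WT cytoplasm alone had 4116 and 4375 in KO and 4684 in one WT library and 4685 in the other, a ratio of 0.906. The ratio was 0.968 for the 2175 that were over 3 in both genotypes. The groups, which stood apart in the cytoplasm by choice, thus had ratios between 0.906 and 0.968 in whole cells. All whole cell junction reads came to 58165 and 50341 in KO and to 57780 and 55109 in WT. Of the 954 circRNAs called higher in KO cytoplasm and tested in whole cells, 470 had a whole cell log2 fold change above 0 and 484 below, and of the 843 called lower, 413 were above and 430 below. The median was -0.07 in each. Across the 4125 circRNAs tested in both fractions, the log2 fold changes had r = -0.0121, and across the 267 with at least 100 cytoplasmic reads r = 0.00361 (descriptions over circles that share libraries). In the whole cell fit, 0 of 8903 circRNAs (0.0%) were called by edgeR, with 3405 at an unadjusted p under 0.05, while DESeq2 called 7. That count depended on the fit, as edgeR called 1832 with DESeq2's size factors, 2003 with scaling by totals and 2054 with the replicate number as a block. The difference between fractions was tested as well, and the change in the cytoplasm differed from that in whole cells for 1018 of 13729 circRNAs (7.41%). At most 4803 of the 13729 were listed in both fractions. The others had no read in 1 fraction, so no change could be seen there, and their share of the 1018 was not counted.

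Only 5 circRNAs passed both edgeR and DESeq2, kept their sign under every scaling and reached a mean of 50 reads in a genotype, 1 higher in KO and 4 lower. Their junctions are shown because they are the circles the comparison turns on, with 30 bases from each side, or 15 for circLin54.
circBnc2, chr4:84546205-84555904, minus strand: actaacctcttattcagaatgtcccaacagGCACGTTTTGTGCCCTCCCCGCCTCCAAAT
circAff3, chr1:38534906-38536946, minus strand: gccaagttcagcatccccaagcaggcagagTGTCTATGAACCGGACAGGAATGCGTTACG
circLin54, chr5:100475689-100485855, minus strand: aagtcgccaaataagCACCTGGGCATCTCT
circGnptab, chr10:88400652-88414598, plus strand: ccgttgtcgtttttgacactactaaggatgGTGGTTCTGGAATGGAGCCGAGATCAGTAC
circKif26b, chr1:178678826-178679359, plus strand: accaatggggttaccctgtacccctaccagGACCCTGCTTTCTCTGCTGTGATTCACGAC

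CircBnc2, from exons 2 and 3 of the gene of the zinc finger protein basonuclin 2, was the one that rose. Each WT library held 2 reads of it, and KO held 139 and 256 (log2 fold change 7.04 ± 1.11, adjusted p = 1.65e-04 in edgeR). Against all cytoplasmic junction reads it was 138 times higher in KO, with a 95% exact interval of 53.6 to 511 that covers counting error alone. In whole cells the order was the other way, with 220 and 183 reads in WT against 44 and 43 in KO, so the WT cytoplasm was the group that lacked it. The change in the cytoplasm differed from that in whole cells (log2 difference 9.14 ± 1.40, adjusted p = 3.17e-04 in edgeR). Bnc2 mRNA did not pass the test (log2 fold change -0.05 ± 0.14, adjusted p = 0.79).

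Of the 4 circles that were lower in KO cytoplasm, circAff3 and circLin54 had the largest differences. CircAff3, from a gene of the AF4/FMR2 family of transcription regulators, had 27 and 99 reads in WT against 2 and 1 in KO (log2 fold change -4.70 ± 0.95, adjusted p = 7.00e-04 in edgeR). After division by all cytoplasmic junction reads, its ratio of KO to WT was 0.0334, with a 95% exact counting interval of 0.00679 to 0.0998. CircLin54, from the gene of the DNA-binding subunit of the DREAM complex, which represses cell cycle genes, had 119 and 121 reads in WT against 4 and 8 in KO (log2 fold change -3.78 ± 0.85, adjusted p = 0.0014 in edgeR). WT and KO did not overlap in either. In whole cells circAff3 had 32 and 22 reads in WT against 22 and 7 in KO, which met at 22, and circLin54 had 18 and 10 against 14 and 8, which overlapped. Aff3 mRNA was also lower in KO (log2 fold change -0.56 ± 0.07, adjusted p = 1.98e-05 in edgeR), whereas Lin54 mRNA had a log2 fold change of -0.01 ± 0.07 (adjusted p = 0.95).

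CircGnptab and circKif26b completed the list. CircGnptab, from the gene of the enzyme that begins the mannose 6-phosphate tag of lysosomal proteins, had 60 and 57 reads in WT against 4 and 7 in KO (log2 fold change -2.86 ± 0.75, adjusted p = 0.0039 in edgeR), against 9 in each WT and 10 and 8 in the KO whole cell libraries. Gnptab mRNA was also lower in KO (log2 fold change -0.34 ± 0.07, adjusted p = 0.0011 in edgeR). CircKif26b, a single exon of a kinesin family gene, had 81 and 136 reads in WT against 13 and 16 in KO (log2 fold change -2.34 ± 0.78, adjusted p = 0.017 in edgeR). In whole cells it had 8 and 12 reads in WT against 9 and 19 in KO. Its mRNA had the largest difference among the mRNAs of these 5 hosts, at 1599, 1395 and 1651 counted reads in WT against 492, 438 and 520 in KO (log2 fold change -1.46 ± 0.08, adjusted p = 9.14e-09 in edgeR). For circLin54, circGnptab and circKif26b, WT cytoplasm was the group that stood apart. Its counts, not scaled for depth, lay above those of KO cytoplasm and of the whole cell libraries of both genotypes. The test between fractions called circAff3 (adjusted p = 0.0383), circLin54 (adjusted p = 0.0299) and circGnptab (adjusted p = 0.0441), all by edgeR, and gave an adjusted p of 0.0736 for circKif26b. No circRNA was called in that test when either KO whole cell library was left out. In the cytoplasm, circBnc2 and circLin54 kept their call without each library in turn. CircAff3 lost it without KO replicate 2 (adjusted p = 0.0502), circGnptab without KO replicate 1 (adjusted p = 0.0646) and circKif26b without either KO library or WT replicate 2 (adjusted p = 0.0948, 0.0678 and 0.0892), all in edgeR. CircAff3 also lost it without scaling (adjusted p = 0.0526), circKif26b with the replicate number as a block (adjusted p = 0.0521), and circGnptab and circKif26b in the fit limited to at least 100 reads (adjusted p = 0.193 and 0.202), again in edgeR.

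In other abundant circles too, 1 of the 4 groups of cytoplasm and whole cell libraries stood near 0 while the other groups did not. Of 208 circRNAs with at least 200 reads over these 8 libraries, 11 had exactly 1 group at most 3 in both libraries, and none had more than 1. The low group was KO cytoplasm for circAff3 and circCntln, WT cytoplasm for circBnc2 and circRps6kc1, KO whole cells for circElf2, circRsrc1 and both Glis3 circles, and WT whole cells for circNfix, circPvt1 and circLtbp1. CircNfix, the most abundant circle of WT cytoplasm, had 2 and 0 reads in WT whole cells, against 681 and 677 in KO whole cells. CircPvt1 had 1 and 2 reads in WT whole cells, against 566 and 569 in KO. A circle at 1837 reads in the cytoplasm is part of the whole cell, so for circNfix and circPvt1 the WT lists of both fractions are at odds. The cause was not tested.

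**Figure D4:**
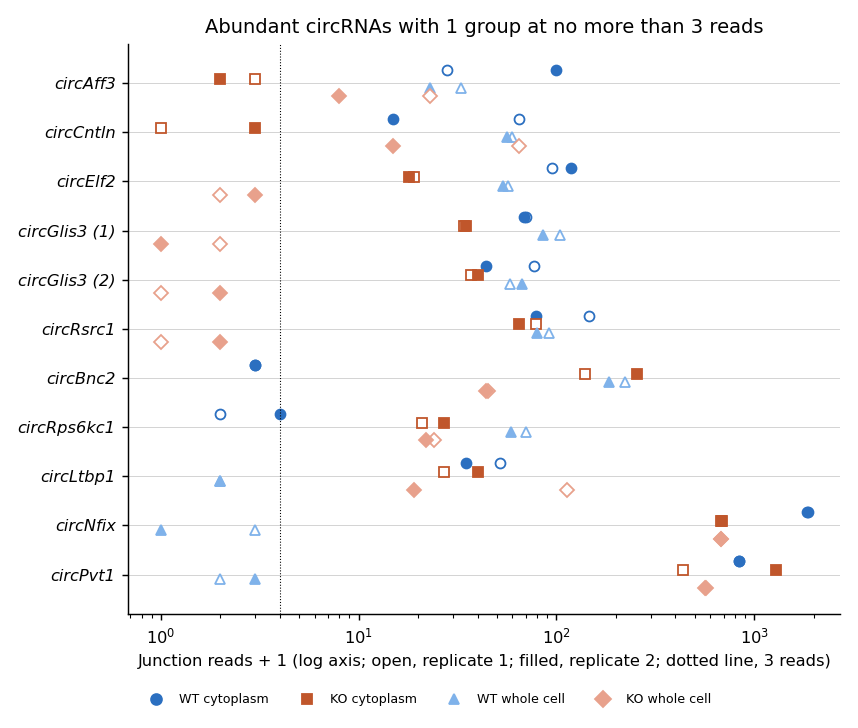
Junction reads plus 1 (log axis) of 11 abundant circRNAs, with 1 row per circRNA and 1 point per library (dark circles WT cytoplasm, dark squares KO cytoplasm, light triangles WT whole cell, light diamonds KO whole cell; open replicate 1, filled replicate 2). In each row 1 group lies at most at the dotted line of 3 reads and the other groups lie to its right.

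Of the 5 genes whose circles the study imaged in NIH/3T3 cells, 4 had circles listed in the cytoplasm, 12 in all. Among them is circNfix, described above. CircHipk3, exon 2 of a nuclear kinase gene and among the best known circles of mammals, had 137 and 132 reads in WT against 14 and 98 in KO. Both KO values were lower than WT, but the KO replicates stood far apart (log2 fold change -0.80 ± 0.85, adjusted p = 0.42). The most abundant of 5 Specc1 circles, from a cytospin gene, had 53 and 16 reads in WT against 18 and 21 in KO, which overlapped. CircWwc1, from the gene of the Hippo pathway scaffold KIBRA, had 3 and 0 reads in WT and 10 in each KO library and was called higher (log2 fold change 3.16 ± 0.67, adjusted p = 8.93e-04 in edgeR). It belongs to the circles that were low in WT, it lost its call without WT replicate 2 (adjusted p = 0.105 in edgeR), and it was not listed in whole cells. No Adarb1 circle was listed in the cytoplasm. Over the 12 circles of these hosts, 2 (16.7%) were higher and 1 (8.33%) lower in KO, against 30.0% and 23.5% of all circRNAs tested. The junctions of circHipk3, circSpecc1 and circWwc1 are as follows, with 15 bases from each side for circHipk3 and 30 for the others.
circHipk3, chr2:104470749-104471847, minus strand: atctcgctactacagGTATGGCCTCACAAG
circSpecc1, chr11:62146306-62161910, plus strand: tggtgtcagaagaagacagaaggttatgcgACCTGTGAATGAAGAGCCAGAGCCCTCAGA
circWwc1, chr11:35852194-35853477, minus strand: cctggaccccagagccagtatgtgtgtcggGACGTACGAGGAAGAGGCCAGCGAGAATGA

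When the reads of all circles of a host gene were added up, 903 of 3614 hosts tested (25.0%) were higher in KO and 752 (20.8%) lower. These calls were less firm than their number, since by edgeR 0 remained with the replicate number as a block (1610 at an unadjusted p under 0.05) and 0 without WT replicate 2 (1147 at an unadjusted p under 0.05), and DESeq2 called 160. Among hosts with a mean of at least 50 reads in a genotype, Bnc2 rose the most, from 41 and 66 reads in WT to 169 and 267 in KO (log2 fold change 2.50 ± 0.43, adjusted p = 0.0022 in edgeR). Over the 4 libraries, 73.5% of the Bnc2 reads were of circBnc2 alone. Of the 6 Bnc2 circles tested, 1 was called higher and 1 lower. Rnf114, a ubiquitin ligase gene, had 21 and 25 reads in WT against 58 and 56 in KO. Ppp6r2, of a protein phosphatase 6 subunit, had 26 and 24 against 55 and 61, and Snap47, of a SNARE protein, 22 and 30 against 55 in each library. Atxn3, of the deubiquitinase ataxin 3, had 30 and 29 reads in WT against 26 and 93 in KO, and is the one of these hosts whose groups overlapped. The sums of Ppp6r2, Snap47 and Atxn3 were not called by DESeq2 (adjusted p = 0.0522, 0.0709 and 0.158). Kif26b fell the most, from 98 and 155 reads to 13 and 16 (log2 fold change -2.63 ± 0.39, adjusted p = 0.0015 in edgeR). Traf3, of a signalling adaptor of the TNF receptor family, had 50 and 51 reads in WT against 7 and 6 in KO, Pakap 128 and 96 against 20 and 17, Lin54 161 and 164 against 25 and 29, and Aff3 37 and 107 against 11 and 9. CircKif26b held 87.2% of the summed reads of its host, circAff3 78.7% and circLin54 66.5%, so these sums largely repeat circles named above. A single circle held 94.6% of the Pakap reads. In the other hosts of this paragraph the largest circle held 23.5% to 56.2%.

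Circles of the same gene could be called in opposite directions. Of the 1906 hosts with at least 2 circRNAs tested, 688 (36.1%) had at least 1 called higher and at least 1 called lower, while 589 had calls only higher and 396 only lower. Of the 458 hosts with at least 5 circRNAs tested, 333 (72.7%) had both, 66 had calls only higher and 50 only lower. With 30.0% of all circRNAs called higher and 23.5% lower, a host with many circles would often hold both, and nothing is read from these shares. Vps13b, a gene of lipid transport with the most circles, had 23 tested, of which 9 were higher and 8 lower. Its reads summed to 317 and 233 in WT against 113 and 255 in KO (log2 fold change -0.15 ± 0.47, adjusted p = 0.83 in edgeR). Ptk2, the focal adhesion kinase gene, had 20 tested, with 9 higher and 3 lower, and summed reads of 143 and 106 in WT and 115 and 129 in KO. Birc6, of an inhibitor of apoptosis, had 5 higher and 4 lower of 20, Atp6v1h, of a subunit of the vacuolar proton pump, 3 higher and 5 lower of 19, and Nbas, of Golgi to endoplasmic reticulum transport, 5 higher and 2 lower of 18. In none of these 5 hosts was the sum called.

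The mRNAs of the host genes were compared with the sums of their circles, in separate libraries. Over all genes tested, 25.1% of mRNAs were higher in KO and 23.6% lower. Of the 892 hosts with higher circular reads and a tested mRNA, 250 (28.0%) had a higher mRNA and 246 (27.6%) a lower one. Of the 742 with lower circular reads, 179 (24.1%) had a higher and 249 (33.6%) a lower mRNA. The shares over all 3569 hosts were 25.7% and 29.8%, and r between both log2 fold changes was 0.0634 across hosts. By the titles, Kif26b, Aff3 and Traf3 were lower in both measures and Snap47 was higher in both, while Atxn3 and Rnf114 had higher circular reads and lower mRNA (log2 fold changes of -0.50 ± 0.07, adjusted p = 7.06e-05, and -0.26 ± 0.07, adjusted p = 0.0051, in edgeR). Under the headings within the files these would be the other way round, with the first 4 genes apart and the last 2 alike, and r would change sign. The circular sum of Snap47 was called by edgeR but not by DESeq2 (adjusted p = 0.0709). The circular sum of Atxn3 rests on KO replicate 2, without which its log2 fold change was 0.48 (adjusted p = 0.287 in edgeR, against 1.45 and 0.0349 with it), and it was not called by DESeq2 (adjusted p = 0.158) or, in edgeR, without scaling (adjusted p = 0.328), with at least 50 reads (adjusted p = 0.0636) or without WT replicate 2 (adjusted p = 0.534).

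Circles were also grouped by what their host genes do, in 10 lists. As the calls depend on the low counts described above, each list is read against the 30.0% higher and 23.5% lower of all circRNAs. Nuclear transport genes, a list that includes exportins, importins and nuclear pore genes, were hosts of 91 circRNAs tested, of which 30 (33.0%) were higher and 17 (18.7%) lower. CircIpo7, from an importin gene, had 84 and 60 reads in WT against 16 and 51 in KO. CircTnpo3, from the gene of the importer of SR splicing proteins, had 13 and 12 against 11 and 32. Neither was called (adjusted p = 0.49 and 0.091 in edgeR). Splicing and circRNA biogenesis genes had 25 higher (31.6%) and 14 lower (17.7%) of 79, with circPtbp3, of a polypyrimidine tract binding protein, at 177 and 240 against 57 and 192 and circMbnl2, of a muscleblind splicing regulator, at 56 and 9 against 22 and 89.

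Matrix and adhesion genes had 35 higher (34.0%) and 19 lower (18.4%) of 103. CircLtbp1, from the gene of a latent TGF-beta binding protein, had 51 and 34 reads in WT against 26 and 39 in KO, and circAdam10, from a sheddase gene, 50 and 17 against 9 and 34. TGF-beta and BMP signalling had 13 higher (26.0%) and 15 lower (30.0%) of 50. There circZeb1, from a gene of epithelial-mesenchymal transition, had 101 and 129 reads in WT against 25 and 71 in KO, and circSmad1, from a signal transducer of BMP receptors, 80 and 67 against 40 and 133. Fibroblast transcription factors had 21 higher (21.9%) and 19 lower (19.8%) of 96. They include circNfix and circBnc2, which had the most reads of that list.

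Chromatin regulators had 69 higher (32.1%) and 47 lower (21.9%) of 215, led by circNsd2 and circKat6b. Ubiquitin ligases and proteases had 52 higher (26.7%) and 54 lower (27.7%) of 195, with circUbe2k, of a ubiquitin-conjugating enzyme, at 145 and 226 against 49 and 153 and circRnf169 at 75 and 46 against 23 and 81. Protein kinases had 59 higher (26.1%) and 53 lower (23.5%) of 226, with circFgfr1, of a fibroblast growth factor receptor, at 109 and 163 against 64 and 48. Hosts of well-studied circles had 15 higher (16.0%) and 23 lower (24.5%) of 94, and circTulp4 had 235 and 255 reads in WT against 30 and 187 in KO. None of the list circles named here except circBnc2 was called. The medians of the log2 fold change ran from -0.85 for the imaged hosts and -0.75 for TGF-beta and BMP signalling to 0.08 for matrix and adhesion, against -0.25 for all circRNAs. With the 285 circRNAs that had no read in either library of a genotype set to 3 reads over that genotype, no list's median moved. That outcome was fixed in advance, since circRNAs with at least 10 reads in the other genotype stay on their side of the median. Nothing is read from it.

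**Figure D5:**
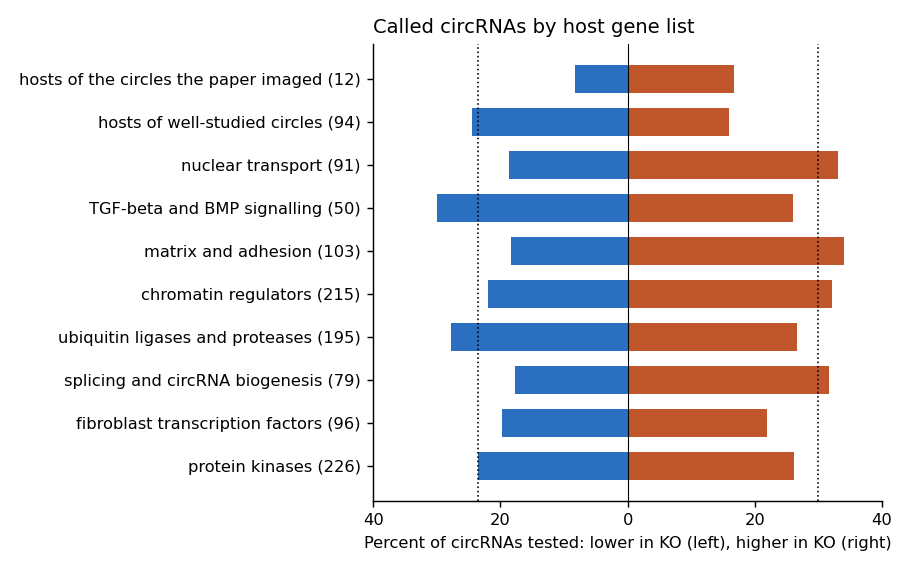
Percent of the circRNAs tested in each host gene list (number in brackets) that were lower in KO (bars to the left) or higher in KO (bars to the right), by edgeR at an adjusted p under 0.05. The dotted lines mark the 23.5% and 30.0% of all circRNAs, around which the larger lists lie.

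The circles called in either direction differed modestly in make-up, again counted over those with a matching transcript. The 2671 higher in KO had a median spliced length of 472 nt and 3 exons, and the 2097 lower had 538.5 nt and 4 exons. The median GC content was 48.1% and 48.2%, and the shares that began at exon 2 were 27.8% and 30.0%. Circles over 3 reads in both genotypes had longer introns on either side, with medians of 10902 nt before and 8039 nt after, than those low in KO (6233 and 4578 nt) or low in WT (5763 and 4063 nt). Of these 2568, 84.7% were also listed in whole cells, against 38.2% of those low in KO and 36.1% of those low in WT. These comparisons are descriptions, since calls and groups rest on the same counts. The groups also differ in abundance, which was not held equal.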

How the data were processed

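Cytoplasmic RNA of 2 WT and 2 KO libraries had been digested with RNase R, trimmed with cutadapt and searched with find_circ. The authors deposited, for each library, circRNA positions on GRCm38 (mm10) with whole-number junction read counts. The study's methods speak of scaling junction reads to TPM and of merging the circRNAs found in both replicates, but the deposited values were whole numbers with a different total in each library and 1 list per library, and were analysed as counts. If they had been scaled or merged beforehand, the spread that edgeR assumes would not hold. How the lists were filtered is not given in the sources used here. For mRNA, the deposited counts per gene came from featureCounts (version 2.0.0) after HISAT2. Starts were raised by 1 to count from 1, after which exon edges matched. Host genes and exons came from GENCODE annotation on GRCm38.p6, and 55141 of 55401 gene IDs of the mRNA files were matched to symbols after leaving out their version. Nuclear lists were used only to count circRNAs of the series, without 25 rows that held several positions. The cytoplasm, host sums, whole cells and the difference between fractions were fitted with the quasi-likelihood test of edgeR (version 4.0.16, in R 4.3.3) after TMM scaling, on features with at least 10 reads summed, with Benjamini-Hochberg adjustment over all features and a threshold of 0.05. Library values were compared by two-sided exact permutation tests (Python 3.11.15). Standard errors beside edgeR's log2 fold changes are not an output of the fit. They were recovered by dividing the absolute log2 fold change by the square root of the test's F statistic.

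Alternatives were other scalings, other count minimums, DESeq2 (version 1.42.0), the replicate number as a block, and leaving out each library. The libraries held 50629 to 81941 junction reads, and without molecular identifiers intervals cover counting error alone. Scripts were tested on simulated data. Named circRNAs are the most abundant of each imaged host, the 10 highest means of each genotype, up to 10 each way past edgeR and DESeq2 with 1 sign under every scaling and a mean of at least 50 reads, and the 2 with the most reads of each host list. Named hosts are the 5 with the largest change each way at a mean of at least 50 reads and the 5 with the most circRNAs tested, ties broken by gene ID. CircCntln, circElf2, circRsrc1, circRps6kc1 and the Glis3 circles were named after their values were seen. A further host list is not reported here. Members and lists were chosen with earlier results of these data known.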

Additional observations from a re-analysis of the deposited data

Results flagged for a closer look

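The change from WT to KO differed between cytoplasm and whole cells for 1018 circRNAs by the interaction term of edgeR's quasi-likelihood test, adjusted over 13729 circRNAs, and for 0 when either KO whole cell library was left out (1559 and 1547 at an unadjusted p under 0.05, not run with DESeq2). Of the named circRNAs, 7 were among them. The log2 change in the cytoplasm minus that in whole cells was -10.23 for circNfix, -8.04 for circPvt1 and -5.80 for circLtbp1, whose whole cell reads in WT were at most 2 in each library. It was 9.14 for circBnc2, which had 2 reads in each library of WT cytoplasm. The values were -3.87 for circAff3, -3.52 for circLin54 and -2.95 for circGnptab, whose whole cell reads overlapped or met between the genotypes. The cause was not tested. No group held 4 or more libraries, so no library was checked as an outlier of its group.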

How the results depend on the processing

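Depth was low, as the median circRNA tested had 19 reads summed over 4 libraries. On simulated counts edgeR recovered 28% of 4-fold changes among cytoplasmic circRNAs, with changes placed only where the mean was at least 5 reads. The simulation gave every circRNA the same fixed spread between replicates. It held neither the gap between the KO replicates nor the low counts in one genotype, so its recovery does not describe these libraries. Counts of calls moved with the processing, and the cause was not tested. For cytoplasmic circRNAs the 4768 calls became 2353 without scaling, 87 with at least 50 reads summed, 3 with at least 100 (an alternative chosen after seeing the data), 879 with DESeq2, and 1928 to 3553 when 1 library was left out. For host sums the 1655 calls became 334 with at least 50 reads, 106 with at least 100, 160 with DESeq2, and 0 to 1247 when 1 library was left out. For the difference between fractions the 1018 calls became 22 without scaling, 268 with at least 50 reads, 25 with at least 100, 150 with DESeq2, and 0 to 840 when 1 library was left out. For whole cells the 0 calls became 1832 with DESeq2's size factors, 2003 with scaling by totals, 14 with at least 50 reads, 11 with at least 100, 7 with DESeq2, and 0 to 508 when 1 library was left out. The 7151 calls among mRNAs stayed within 1.5 times under every alternative run (6143 to 7696).

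Same-numbered libraries share a number in the labels and nothing else that is stated, and the deviations of same-numbered cytoplasmic libraries had r = -0.0191 across 8917 circRNAs, so the numbers were not taken as pairs. With the replicate number as a block, the calls were 4445 among cytoplasmic circRNAs, 0 among host sums, 1085 between fractions, 2054 in whole cells and 7124 among mRNAs. CircKif26b was the single named circRNA to lose its call with the block (adjusted p = 0.0521 in edgeR).

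The lower number of circRNAs listed in KO, a difference of -183, turned to 279.5 after thinning to the smallest library. The KO minus WT difference in the share of the 100 most abundant circRNAs, -2.58 percentage points, ran from -6.91 to 1.74 when 1 library was left out. The difference in junction reads kept its direction under all alternatives run, with -29250.5 to -16544.5 when 1 library was left out.

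Of 549 recomputed fold changes of 46 named circRNAs and hosts, 465 kept their direction and call, 40 lost a call, 8 gained one and 36 turned direction. All 36 were of circRNAs or hosts that were not called. Outside of leaving out a library, circNsd2 turned to 0.071 with DESeq2, 0.072 with its size factors, 0.24 with at least 100 reads and 0.0061 with at least 50. With at least 100 reads circSpecc1 turned to 0.21 and circAdam10 to 0.11. Without scaling the values turned to -0.39 for circLtbp1, -0.22 for circRnf169, and -0.029 and -0.17 for the summed reads of Ptk2 and Nbas. Leaving out 1 library at a time turned the direction at least once, with ranges of -2.18 to 0.50 for circHipk3, -1.41 to 0.65 for circSpecc1, -1.15 to 0.46 for circVapa, -1.69 to 0.60 for circMettl9, -0.99 to 0.42 for circDtnb, -1.34 to 0.61 for circKat6b, -1.02 to 1.14 for circNsd2, -0.013 to 1.75 for circAlg12, -1.95 to 0.58 for circTulp4, -1.35 to 0.45 for circIpo7, -1.11 to 0.28 for circZeb1, -0.64 to 0.82 for circLtbp1, -1.24 to 0.94 for circAdam10, -0.83 to 0.70 for circUbe2k, -0.56 to 1.36 for circRnf169, -0.78 to 0.86 for circPtbp3, -0.049 to 2.92 for circMbnl2, -1.14 to 0.0082 for circFgfr1, -0.63 to 0.39 for the summed reads of Vps13b and -0.043 to 0.68 for the summed reads of Ptk2. Of these turns, 14 came without KO replicate 1.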
